A study of Mus musculus with 9 samples.

Results

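Translation initiation and elongation factors were taken as the genes whose probe name in the scanner tables starts with Eif or Eef followed by a digit. Control probes and the eIF2 alpha kinases, whose names start with Eif2ak, were left out. The rule named 131 of 41174 probes and 57 genes. Of these genes, 54 were among the 14253 genes tested. Eef1a2, Eif2b3 and Eif2s3y did not pass the filter on dim probes, which asked for a signal well above background in the sample channel on at least 3 of 9 arrays. By name, the tested genes comprised 39 initiation factors, 6 elongation factors, 5 regulators and 4 genes that the array names Eif2c1 to Eif2c4. Those last 4 are now named Ago1 to Ago4. They encode Argonaute proteins, which bind small RNAs and are not initiation factors, so they are described apart from both classes.

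The study measured RNA of 3 female athymic BALB/c mice (strain in the labels Balb/c atymic), numbered 832, 833 and 834, on 9 two-colour Agilent arrays. Each mouse received a subcutaneous inoculum of Hepa1-6, a mouse hepatoma cell line. Each gave blood before inoculation (day 0 Blood), blood 10 days after it (day 10 Blood), and a fraction of the day 10 tumour enriched in infiltrating inflammatory cells (day 10 TIC). The labels name blood as the source of all 9 samples, and the tissue entry alone sets the TIC samples apart. Sample RNA carried Cy5 on every array. The Cy3 channel held the same reference throughout, RNA from the blood of a female C57Bl/6 mouse that had received no treatment, and dyes were not swapped. Athymic mice lack a thymus and have few mature T cells. TIC RNA was isolated with the MicroRNA isolation kit (Stratagene) and blood RNA with the Mouse RiboPure-Blood kit (Ambion), so that tissue and kit cannot be told apart in any comparison of TIC with blood.

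Translation starts when the small ribosomal subunit, loaded with the initiator tRNA by eIF2, is brought to the mRNA by eIF3 and the cap-binding eIF4 factors and scans to the start codon under control of eIF1, eIF1A and eIF5. eIF2B recharges eIF2 with GTP. Elongation is carried by eEF1A, which delivers aminoacyl-tRNA, by the eEF1B subunits, which exchange its nucleotide, and by eEF2, which moves the ribosome along. In mammals several of these mRNAs, among them those of eEF1A, eEF2 and some eIF3 subunits, carry the same kind of terminal oligopyrimidine start as ribosomal protein mRNAs and are translated under control of mTOR.

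The promoters of eIF3 genes are shown because these genes lay on the same side in most comparisons below. RefSeq promoter windows (GRCm38.p6) were matched for 45 of the 57 genes, with 60 promoters. The 250 bases before each start were searched on both strands for CCGGAAG, a core recognised by ETS factors, and for CACGTG, the palindromic E-box of MYC and related factors. CCGGAAG was present in 6.91% of 32851 promoters, in 11 of the 60 promoters here (18.3%) and in 4 of 9 eIF3 promoters. CACGTG was present in 6.02% of all promoters, in 13 of the 60 (21.7%), in 2 of 9 eIF3 promoters and in 1 of 5 elongation factor promoters, that of Eef2. A match describes these letters only. Each window has 60 bases, read 5′ to 3′ on the gene's strand, and capitals mark the match (CTTCCGG is CCGGAAG on the opposite strand). The windows are Eif3c chr7:126566367-126566426 (minus), Eif3d chr15:77970861-77970920 (minus), Eif3g chr9:20898601-20898660 (minus), Eif3l chr15:79075162-79075221 (plus), Eif3f chr7:108934320-108934379 (plus), Eif3k chr7:28981900-28981959 (minus) and Eef2 chr10:81176561-81176620 (plus).
Eif3c: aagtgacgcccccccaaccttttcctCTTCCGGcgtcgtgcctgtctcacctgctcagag
Eif3d: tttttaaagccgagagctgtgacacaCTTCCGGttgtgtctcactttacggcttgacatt
Eif3g: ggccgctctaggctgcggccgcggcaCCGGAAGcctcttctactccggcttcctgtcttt
Eif3l: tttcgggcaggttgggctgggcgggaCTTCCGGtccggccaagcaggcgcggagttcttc
Eif3f: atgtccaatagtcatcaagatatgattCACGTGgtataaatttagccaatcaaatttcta
Eif3k: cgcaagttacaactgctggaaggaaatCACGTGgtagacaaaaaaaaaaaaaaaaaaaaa
Eef2: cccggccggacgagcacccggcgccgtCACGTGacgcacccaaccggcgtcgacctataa
The matches in these 7 windows begin between 34 and 70 bases before the annotated start.

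Values are log2 ratios of the sample to the reference, and differences between groups are differences of these ratios with the SE of a fit over all 9 arrays. No spot was saturated. In Cy5, 24.3% to 36.9% of spots were well above background on the day 0 blood arrays and 14.2% to 21.0% on the day 10 blood arrays. On the TIC arrays the range was 48.2% to 55.1%. Day 10 blood was thus dimmer than day 0 blood on every array, and the part of this in the differences between the bloods was not tested. The TIC array of mouse 833 stood apart: over all genes it correlated at 0.885 and 0.896 with the other TIC arrays, which correlated at 0.989 with each other. It lay more than 1 log2 unit from the mean of the other TIC arrays in 17.2% of all genes and in 23 of the 54 factor genes (42.6%). Calls between TIC and day 10 blood that it changes are given with and without it. The array's slide could be read from the files: the TIC array of mouse 832 lay alone on a slide, and no slide held both TIC and day 10 blood.

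Cell type markers differed widely between TIC and blood. All 5 erythroid, 4 platelet, 5 B cell and 4 T cell markers tested were called lower in TIC than in day 10 blood, and all 4 hepatoma and liver markers were called higher. Alpha-fetoprotein (Afp), a hepatoma marker, had the largest of these increases, 5.35 ± 0.28. Of 7 macrophage and leukocyte markers 1 was called higher and 1 lower, and their median ratio per TIC array was -0.16 to 0.14, against -0.02 to 0.15 in blood of both days. The lower gene was Ptprc, at -3.37 ± 0.46. The higher gene was C1qa, not above background in day 10 blood (adjusted p = 0.000862 by limma). Of 5 neutrophil markers 2 were called lower, S100a8 at -4.93 ± 0.22 and S100a9 at -5.52 ± 0.29, and none higher. Of 5 fibroblast markers 2 were called higher and 3 lower. Of 5 proliferation markers 4 were called higher and 1 lower. In RNA of mixed cells, fewer cells of a type and less RNA per cell cannot be told apart. The part of these cell types in the differences of translation factors was not tested.

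In the TIC fraction, most initiation factor genes were expressed higher, relative to other genes, than in the blood of the same mice on day 10, while the elongation factor genes diverged from each other. By limma with Benjamini-Hochberg adjustment over all genes, 23 of 39 initiation factors were called higher and 6 lower, against 34.4% of all tested genes higher and 33.1% lower. Of the 6 elongation factors 2 were called higher and 1 lower, and 3 were not called. Over all 54 genes the counts were 26 higher and 11 lower. That makes 37 of 54 called, against 67.6% of all genes, and in 8 of the 37 a group was not above background. All 26 genes called higher kept a positive difference under the scanner's processed signals, under median centring of each array and in the Cy5 channel alone. Of the 11 called lower, 10 turned to a positive difference under median centring, which leaves in the trend of ratio with intensity that loess removes and moved the median of all genes to 1.38. The processed signals and the Cy5 channel alone turned 1 each, with the median of all genes at 0.84 and 0.215. All these settings moved that median upward, so the kept signs of the genes called higher are no separate support for those calls.

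**Figure D1:**
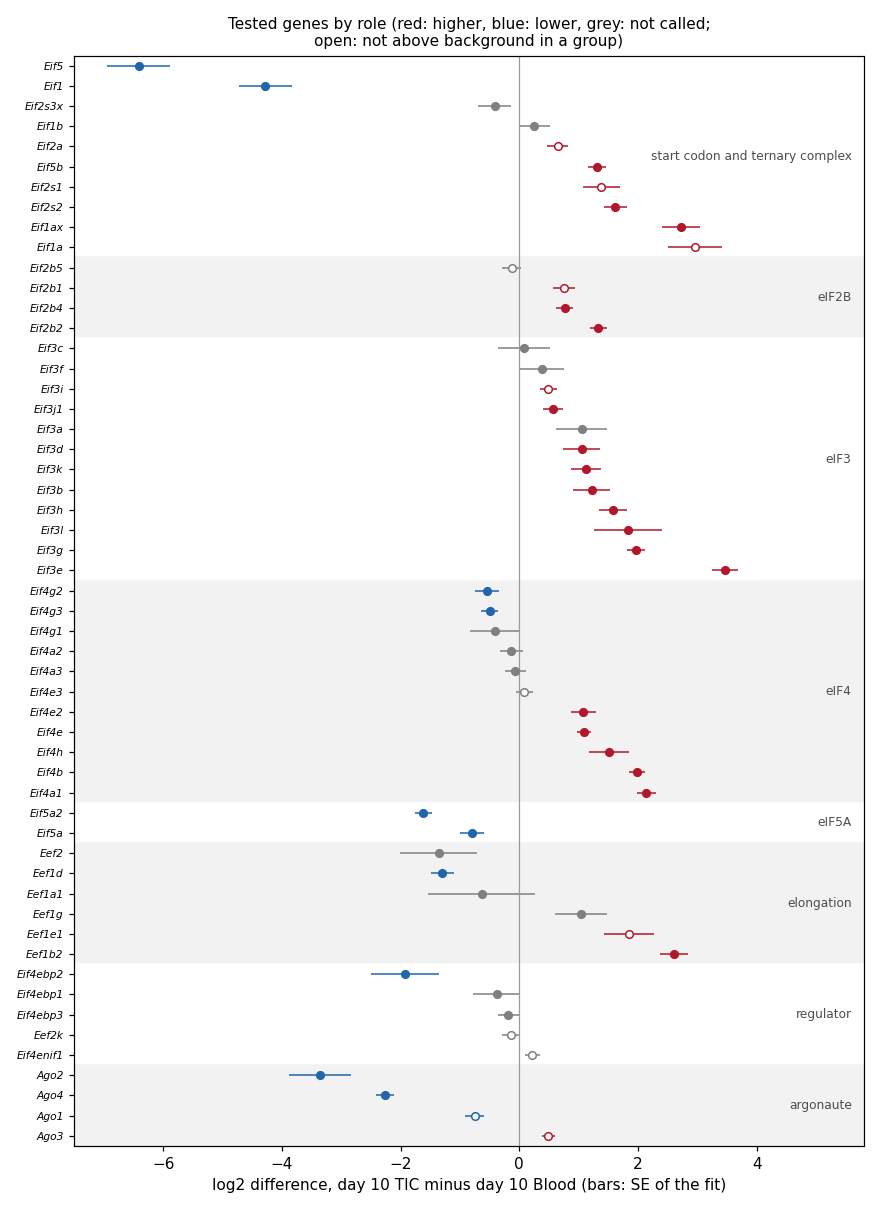
Differences in log2 ratio, day 10 TIC minus day 10 Blood, for the 54 tested genes grouped by role, with SE bars from the fit over all 9 arrays (3 arrays a group). Red marks genes called higher, blue called lower and grey not called; open points had a group that was not above background. All 12 eIF3 genes lie above 0, and Eif5 lies farthest below 0 at -6.42.

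Among the factors that form the ternary complex and select the start codon, 6 of 10 were called higher in TIC and 2 lower, and the same counts held against day 0 blood. The 2 lower genes had the largest differences of all members. Eif5 encodes the GTPase activator of eIF2, and its probe lies at chr12:111987972-111988031 on the plus strand of build mm8. Its ratios were -1.20, -1.98 and -0.98 on day 0 (mice 832, 833 and 834), -0.29, -0.26 and 0.20 in day 10 blood, and -7.38, -5.19 and -7.02 in TIC. Every TIC value lay below every blood value, and day 10 blood lay above day 0. The difference between TIC and day 10 blood was -6.42 ± 0.53 (adjusted p = 1.24e-05 by limma). The other probes of Eif5 were also called lower, with the smallest difference at -0.58. Eif1, which guards start codon accuracy, was also lower, at -4.28 ± 0.45 on its brightest probe (chr11:100137465-100137525, mm8) and -1.55 on the other. Without loess, under median centring, Eif1 turned to 2.93 and Eif5 was -0.69.

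The genes of eIF1A, which steers scanning, and of the eIF2 subunits lay on the opposite side. Eif1a had ratios of 0.27, 0.68 and 0.13 on day 0, -0.02, 0.15 and 0.08 in day 10 blood, and 3.73, 1.77 and 3.57 in TIC. The blood values overlapped between days, and all TIC values were above them. The gene was not well above background in day 10 blood. On this probe the increase of the group mean was at least 7.44-fold (adjusted p = 0.000512 by limma). That bound sets the TIC mean against the dimmest signal called well above background in day 10 blood. It holds for this probe and scaling only, and the Cy5 channel alone gave a smaller log2 difference of 2.25. For other genes not above background in a group the bound exceeded the fitted difference, lay close to no change or could not be given, and only the adjusted p is given. All 4 kept probes of Eif1a were called higher, between 1.08 and 2.95. Eif1ax, the X-linked copy, was higher by 2.72 ± 0.32, but its second probe differed by 0.06, and the paralogs may share signal. Eif2s2, the beta subunit of eIF2, was higher by 1.62 ± 0.19 and Eif5b, the GTPase of subunit joining, by 1.31 ± 0.15. Eif2s1, the alpha subunit that stress kinases phosphorylate, was called higher with day 10 blood not above background (adjusted p = 0.00443 by limma). Eif2s3x, the gamma subunit, was not called on its brightest probe, at -0.42 ± 0.28, while its other kept probes were called higher, at 0.63 and 0.94. The brightest probe was called lower without the TIC array of mouse 833, at -0.78 ± 0.13, so the direction of the gene depends on the probe and on that array. Eif1b, a close relative of Eif1, was not called at 0.25 ± 0.26 and was called higher without that array, at 0.60 ± 0.10.

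eIF2B is the exchange factor whose activity limits the supply of active eIF2. Of its 4 genes tested, 3 were called higher in TIC and none lower. Eif2b2 had ratios of -0.30, -0.27 and 0.10 on day 0, -0.34, -0.43 and -0.41 in day 10 blood, and 0.77, 0.88 and 1.16 in TIC. Eif2b4 had -0.13, -0.14 and 0.02, then -0.39, -0.23 and -0.41, and 0.20, 0.35 and 0.70 in TIC. In both genes all TIC values exceeded all blood values, and the differences from day 10 blood were 1.33 ± 0.15 and 0.76 ± 0.14 (adjusted p = 6.46e-05 and 0.00136 by limma). A second kept probe of Eif2b4 was not called, at -0.18. Eif2b1 had ratios of -0.12, -0.22 and -0.01 on day 0, 0.13, -0.12 and -0.05 in day 10 blood, where it was not above background, and 0.32, 1.09 and 0.81 in TIC (adjusted p = 0.00689 by limma). Eif2b5, the catalytic subunit, had -0.19, -0.12 and -0.01, then -0.24, -0.01 and -0.09, and -0.45, 0.10 and -0.39. Its groups overlapped, day 10 blood was not above background, and it was not called, although without the TIC array of mouse 833 it was called lower (adjusted p = 0.0232 by limma).

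eIF3 is the large scaffold that joins the small ribosomal subunit to the mRNA. All 12 of its genes that the name rule covers were tested. On the brightest kept probe every one had a positive difference between TIC and day 10 blood, and 9 were called higher and none lower. In 10 of 12 the groups did not overlap (36.8% of all genes did not overlap in that direction and 34.9% in the other). The median difference was 1.09, against 0.07 over all genes. By mouse it was 0.72 in 832, 1.83 in 833 and 0.89 in 834. Without the TIC array of mouse 833 the median was 0.72, 10 genes were called higher and Eif3c was called lower at -0.53 ± 0.17.

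The subunit with the largest difference was Eif3e, a peripheral subunit also known as Int6. Its probe lies at chr15:43080188-43080247 on the minus strand (mm8). Ratios were 0.32, 0.53 and 0.27 on day 0, -0.37, -0.30 and -0.43 in day 10 blood, and 3.18, 2.57 and 3.55 in TIC. TIC stood above both bloods in every mouse, by 3.47 ± 0.22 over day 10 (adjusted p = 3.73e-06 by limma), and a second probe gave 2.81. Eif3g, an RNA-binding subunit (chr9:20645053-20645112, mm8), had ratios of -0.39, -0.04 and 0.15 on day 0, -0.90, -0.67 and -0.83 in day 10 blood, and 1.1, 1.15 and 1.27 in TIC. The 3 groups were fully separated, with day 10 blood lowest, and TIC exceeded it by 1.97 ± 0.15 (adjusted p = 7.85e-06 by limma).

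A further 6 subunits with both groups above background were called higher. Eif3l differed by 1.83 ± 0.58, Eif3h by 1.58 ± 0.24, Eif3b by 1.22 ± 0.31, Eif3k by 1.12 ± 0.25, Eif3d by 1.05 ± 0.31 and Eif3j1 by 0.57 ± 0.17. In Eif3b and Eif3d only 1 of 2 kept probes was called, and the second differed by 0.45 and 0.25. In Eif3j1 only 1 of 3 kept probes was called, and the lowest differed by -0.31. The probe used for Eif3j1 is placed by the files on another chromosome than the gene, so the copy measured is uncertain. Eif3i was called with day 10 blood not above background (adjusted p = 0.0165 by limma). Eif3a, the largest core subunit, had a difference of 1.05 ± 0.43 (adjusted p = 0.0582 by limma, and 0.0303 with mouse as a block) and was called at 0.45 ± 0.15 without the TIC array of mouse 833. Its second kept probe was called higher, at 0.76. Eif3c and Eif3f, both core subunits, were not called, at 0.07 ± 0.44 and 0.38 ± 0.38, and 1 of the 5 kept probes of Eif3c was called higher, at 0.43. Eif3m, which the array lists under an older name outside the rule, was higher by 2.53 ± 0.42.

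**Figure D2:**
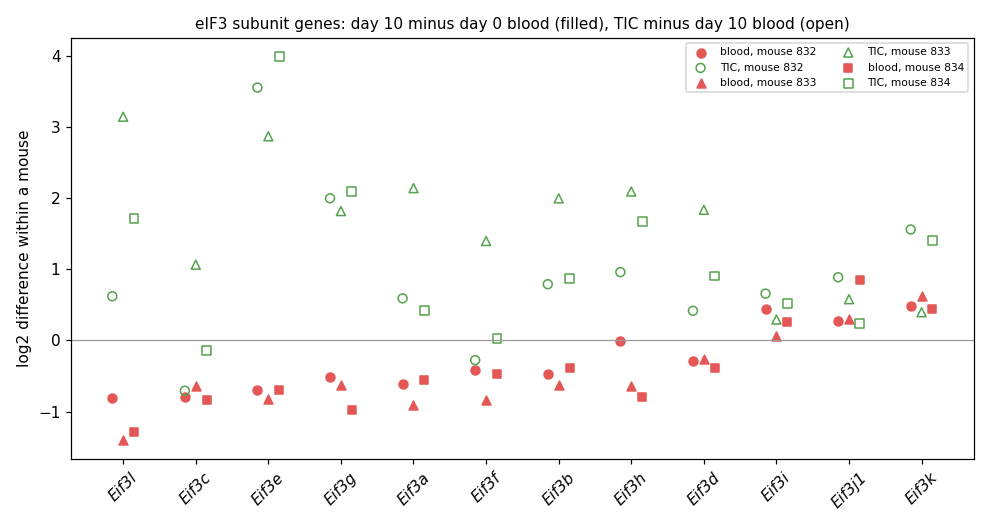
Differences in log2 ratio within each mouse for the 12 eIF3 genes: filled points are day 10 minus day 0 blood, open points TIC minus day 10 Blood, and the shape gives the mouse. The filled points of 9 genes lie below 0 in all 3 mice, and the open points of mouse 833 (triangles) are the highest in most genes.

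Among the eIF4 factors the pattern was mixed. The cap-binding protein, the helicase and its partners were higher in TIC, with 5 of 11 genes called, and scaffold genes were lower, with 2 called. Eif4a1, the helicase that unwinds leader sequences (chr11:69483293-69483352, mm8), had ratios of -0.42, -0.14 and -0.02 on day 0, -0.32, -0.49 and -0.54 in day 10 blood, and 1.43, 1.91 and 1.73 in TIC. The bloods overlapped, and TIC was higher by 2.14 ± 0.16 (adjusted p = 7.38e-06 by limma). Its 3 kept probes gave 0.69 to 2.50, all called. The helicase cofactors Eif4b and Eif4h differed by 1.99 ± 0.14 and 1.51 ± 0.33, and the cap-binding Eif4e and Eif4e2 by 1.09 ± 0.12 and 1.08 ± 0.21.

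The scaffold relative Eif4g2, which lacks the cap-binding part, had ratios of -0.93, -0.88 and -0.58 on day 0, -0.51, -0.60 and -0.27 in day 10 blood, and -1.23, -0.53 and -1.25 in TIC. Mice 832 and 834 were low in TIC, mouse 833 overlapped with blood, and the difference was -0.54 ± 0.21 (adjusted p = 0.0441 by limma). With mouse as a block it was no longer called (adjusted p = 0.0639 by limma). The sign of Eif4g2 turned under the processed signals, to 0.05, and under median centring, to 3.08. Of its 4 kept probes 3 were called lower and none higher, with differences from -1.89 to -0.09. Eif4g3 was called lower at -0.50 ± 0.14 and turned to 2.64 under median centring. Eif4g1, the main scaffold, was not called at -0.41 ± 0.43, but without the TIC array of mouse 833 it was called lower at -1.0 ± 0.12. Eif4a2, Eif4a3 and Eif4e3 were not called, with differences between -0.14 and 0.08. Eif4a3 was called lower without the TIC array of mouse 833, at -0.27 ± 0.10, and the second kept probe of Eif4e3 was called higher, at 0.32.

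eIF5A is a small factor that carries the modified lysine hypusine and helps ribosomes past difficult peptide bonds. Both of its genes were called lower in TIC. Eif5a2 had ratios of -0.23, -0.63 and -0.22 on day 0, 0.19, -0.07 and 0.11 in day 10 blood, and -1.55, -1.67 and -1.41 in TIC. The 3 groups did not overlap, and the difference from day 10 blood was -1.62 ± 0.14 (adjusted p = 1.86e-05 by limma), turning to 1.27 under median centring. Eif5a had -0.90, -1.0 and -0.48, then -0.49, -0.43 and -0.27, and -1.38, -0.78 and -1.42 on the probe at chr11:69733422-69733481 (mm8). That probe was lower in TIC, at -0.80 ± 0.20 (adjusted p = 0.00776 by limma), and the second probe at chr11:69734146-69734205 was called higher by 1.11. The direction of Eif5a therefore depends on the probe, and it also turned in the Cy5 channel alone (0.75), under median centring (3.74) and with the mean of both probes (0.16). The enzymes that make hypusine, Dohh and Dhps, were both called higher in TIC. Dohh differed by 2.26 ± 0.21, and Dhps was not above background in day 10 blood (adjusted p = 0.00662 by limma).

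The elongation factor genes split in the TIC fraction. Eef1b2, the nucleotide exchange subunit (chr1:63113115-63113174, plus strand, mm8), had ratios of -1.06, -0.20 and -0.35 on day 0, -0.94, -1.02 and -0.58 in day 10 blood, and 1.99, 1.56 and 1.72 in TIC. All TIC values were above all blood values, by 2.60 ± 0.24 over day 10 (adjusted p = 2.2e-05 by limma). Eef1e1, which encodes a scaffold protein of the aminoacyl-tRNA synthetase complex, had -0.21, -0.01 and -0.18, then -0.16, -0.09 and -0.18 (not above background), and 2.50, 0.54 and 2.08. Blood stayed near the reference in all 6 samples, and TIC was higher with mouse 833 lowest (adjusted p = 0.00429 by limma).

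Eef1d, the delta subunit of the exchange complex (chr15:75722804-75723003, minus strand, mm8), was the elongation gene called lower. Its ratios were -0.67, -1.08 and -1.01 on day 0, 0.15, 0.40 and 0.40 in day 10 blood, and -1.39, -0.73 and -0.82 in TIC. Day 10 blood stood above both other groups, which overlapped. The difference of TIC from day 10 blood was -1.30 ± 0.19 (adjusted p = 0.000414 by limma) and that from day 0 was -0.06 ± 0.19. A second probe at chr15:75722405-75722464 (mm8) was called higher in TIC by 0.45, so both probes were called in opposite directions. Of 35 genes with more than 1 kept probe, Eef1d and Eif5a were the 2 with probes called both ways. Under median centring Eef1d turned to 4.54.

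The abundant factors eEF1A and eEF2 depended on mouse 833. Eef1a1, which delivers aminoacyl-tRNA (chr9:78264262-78264321, minus strand, mm8), had ratios of -0.28, 0.69 and 0.81 on day 0, -0.75, -0.35 and -0.76 in day 10 blood, and -2.79, 1.23 and -2.20 in TIC. Eef2, the translocase (chr10:80584183-80584242, plus strand, mm8), had -1.34, -0.88 and -0.77, then -0.89, -0.93 and -0.66, and -3.09, -0.37 and -3.09. In both genes the TIC values of mice 832 and 834 were the lowest of the 9 and that of mouse 833 the highest. With all arrays neither was called, at -0.63 ± 0.90 and -1.36 ± 0.64 (adjusted p = 0.552 and 0.0892 by limma). Without the TIC array of mouse 833 both were called lower, at -1.88 ± 0.32 and -2.27 ± 0.17 (adjusted p = 0.000609 and 2.66e-06 by limma), and under median centring they turned to 5.30 and 2.80.

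The channels of these probes were also read apart, as levels after quantile normalization minus the mean of the 6 blood arrays. In Cy5, the sample, Eef1a1 lay at -1.20, 2.21 and -1.07 in the TIC of mice 832, 833 and 834, and Eef2 at -1.19, 1.27 and -1.19. In Cy3, where every array held the same reference, Eef1a1 lay at 0.43, -0.23 and -0.04 and Eef2 at -0.18, 0.53 and -0.13. The contrast between mouse 833 and the others was thus larger in the sample channel. Eef1g, the structural gamma subunit (chr19:9045000-9045059, mm8), had ratios of -0.34, 0.37 and -0.14 on day 0, -1.14, -0.98 and -1.50 in day 10 blood, and -0.99, 0.92 and -0.43 in TIC. TIC overlapped with both bloods and was not called against day 10, at 1.04 ± 0.44 (adjusted p = 0.0614 by limma). With mouse as a block it was called higher (adjusted p = 0.0226 by limma), and without the TIC array of mouse 833 it was not, at 0.50 ± 0.25. A second kept probe of Eef1g was not called, at 0.12. The reference channel of the probe used for Eef1g was raised on all 3 TIC arrays, by 0.80, 1.64 and 0.77. It was also raised in Eef1e1, by 0.90, 0.30 and 0.93, in Eif4a1, by 0.98, 0.67 and 1.15, and in Eif2s2, by 1.60, 0.61 and 1.62. In Eif4g1 it lay at -0.53, -0.71 and -0.59.

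**Figure D3:**
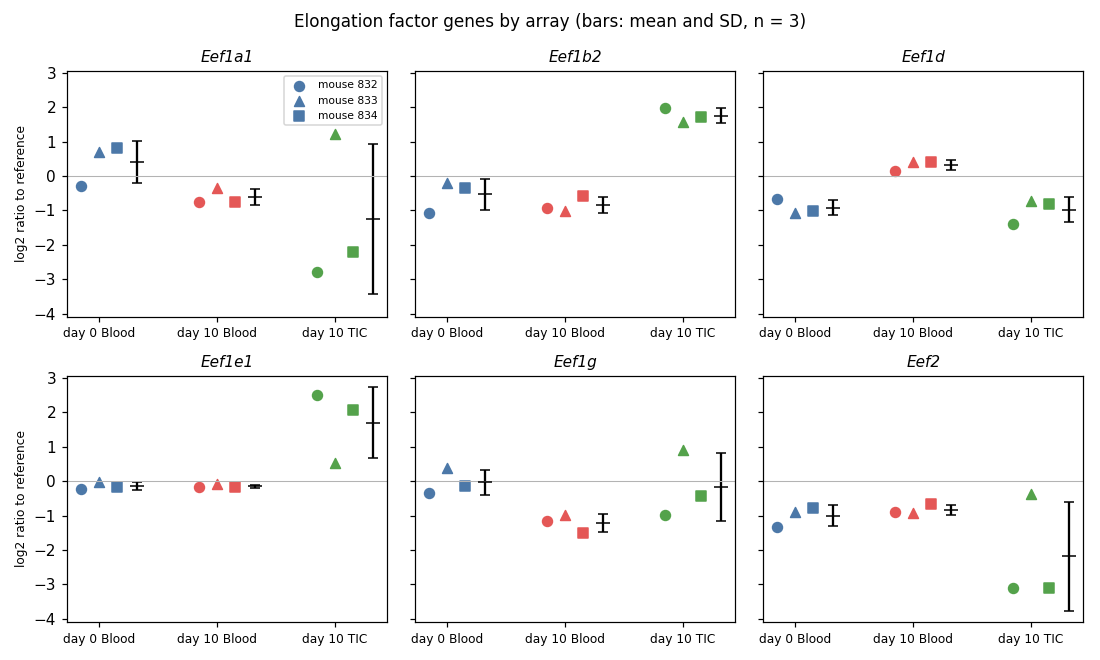
Log2 ratios to the reference of the 6 elongation factor genes on each of the 9 arrays. Eef1b2 is at 1.56 to 1.99 on the TIC arrays and below 0 in blood, while Eef1a1 and Eef2 are low in the TIC of mice 832 and 834 and not in that of mouse 833.

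The medians of both classes were set side by side as a description. In TIC against day 10 blood the median difference was 0.76 over the 39 initiation factors (0.65 with the 4 Argonaute genes), 0.20 over the 6 elongation factors and 0.07 over all genes. Classes follow the gene names, so Eef1e1 counts as elongation and Eif5a and Eif5a2 as initiation. Without Eef1e1 the middle difference of the elongation genes was that of Eef1a1, at -0.63, so the sign of the elongation median rests on this assignment. By mouse, initiation gave 0.62 in 832, 0.92 in 833 and 0.86 in 834, and elongation gave -0.70, 1.11 and -0.08. The initiation median was above the elongation median in mice 832 and 834 and below it in mouse 833. Leaving out the TIC array of mouse 832, 833 or 834 gave elongation medians of 0.79, -0.46 and 0.51, and leaving out the day 10 blood array of mouse 833 or 834 gave 0.33 and 0.09. Without the TIC array of mouse 833, initiation gave 0.64 with 25 genes called higher and 11 lower, and elongation had 2 higher and 3 lower. All 37 calls made with every array were kept, and 39.8% of all genes were called higher and 37% lower. The initiation median exceeded that of all genes under every setting tried. Its excess over elongation turned to -0.87 under median centring, to -0.32 in Cy5 alone and to -0.35 with mouse and slide as blocks, and was near 0 with slide alone as a block. A slide block gives the TIC array of mouse 832 no weight in this difference. TIC is then set against day 10 blood only through day 0 blood. Leaving out that array alone gave an excess of 0.10. With slide as a block 15 factors were called higher and 5 lower, beside 1498 and 2776 of all genes. With mouse and slide the counts were 6 and 0, beside 214 and 897.

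**Figure D4:**
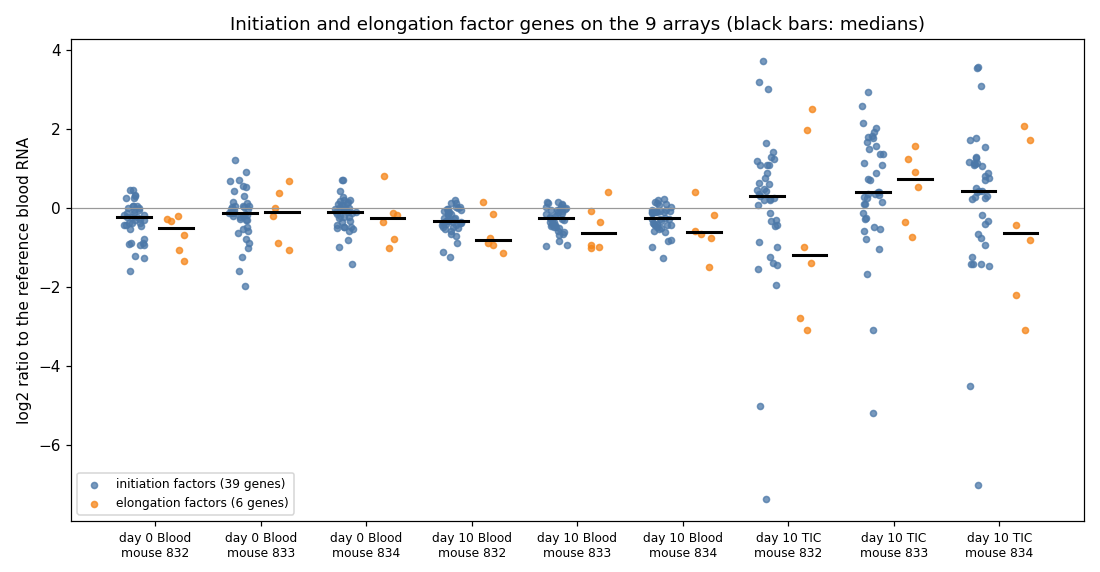
Log2 ratios to the reference of the 39 initiation factor genes (blue) and the 6 elongation factor genes (orange) on each of the 9 arrays; black bars are medians. The initiation medians are -0.33 to -0.11 in blood and 0.32 to 0.43 in TIC, and the elongation median of the TIC array of mouse 833 (0.73) stands apart from those of mice 832 (-1.19) and 834 (-0.62).

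**Figure D5:**
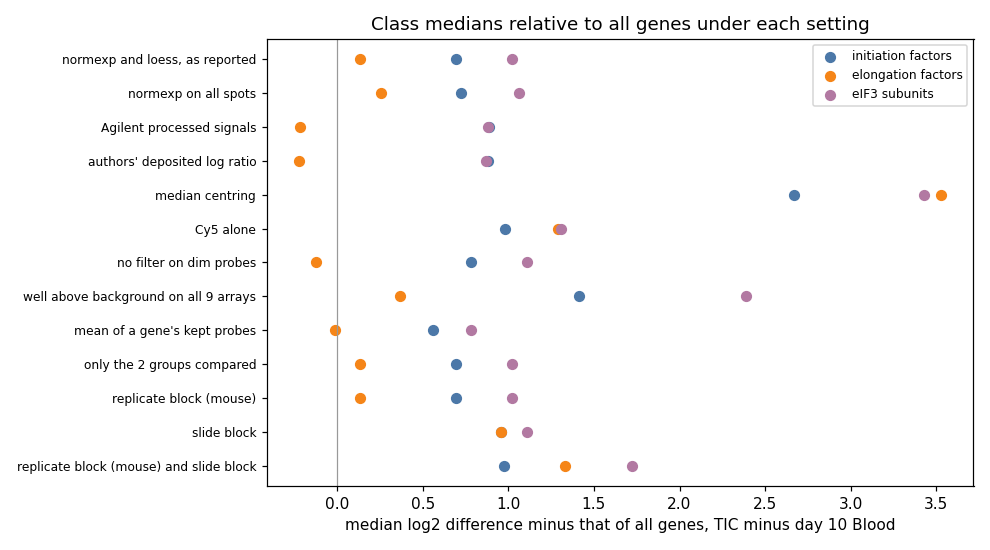
Median log2 difference between TIC and day 10 Blood minus that of all genes, for initiation factors, elongation factors and eIF3 genes, under each processing setting. The initiation and eIF3 points lie above 0 in every setting, and the elongation point lies below 0 in some. It lies above the initiation point under median centring, in Cy5 alone and with mouse and slide as blocks, and level with it with slide as a block.

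Against day 0 blood, which shares the TIC arrays with the comparison above, 19 of 39 initiation factors were called higher in TIC and 4 lower, against 31.7% and 33.6% of all genes. Over all 54 genes 29 were called (65.4% of all genes), and 23 were higher without overlap and 8 lower (32.7% and 34.9% of all genes). The median was 0.72 for initiation, -0.10 for elongation and 0.01 over all genes. The genes farthest from 0 were Eif5 at -5.15 ± 0.53, Eif1 at -3.21 ± 0.45 and Eif3e at 2.73 ± 0.22. eIF3 had 6 genes called higher and none lower, and without the TIC array of mouse 833 Eif3c and Eif3f were called lower, at -1.28 ± 0.17 and -0.70 ± 0.15. With mouse as a block, Eif3b and Eif4h were called higher in addition (adjusted p = 0.0419 and 0.0451 by limma), and Eif4g3, at -0.41, was no longer called (adjusted p = 0.0519 by limma). The elongation genes Eef1b2 and Eef1e1 were higher by 2.29 ± 0.24 and 1.84 ± 0.42, and Eef1a1, Eef2, Eef1g and Eef1d were not called. On the slide that held the day 0 blood of mice 832 and 833 beside the TIC of mice 833 and 834, the medians were 0.88 for initiation, 0.16 for elongation and 0.02 for all genes. Without the TIC array of mouse 833, 20 initiation factors were called higher and 11 lower (37.8% and 37.9% of all genes), with a median of 0.45. Elongation then had a median of -0.43, with Eef1a1 called lower at -2.90 ± 0.32, Eef2 at -2.10 ± 0.17 and Eef1g at -0.68 ± 0.25. Initiation minus elongation turned to -0.85 under median centring and to -0.26 in Cy5 alone.

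Of 5 regulators, 1 was called in TIC against day 10 blood, Eif4ebp2, an inhibitor that binds eIF4E until mTOR phosphorylates it. Its ratios were 0.29, 0.21 and 0.21 on day 0, -0.01, 0.23 and -0.04 in day 10 blood, and -2.67, -0.23 and -2.69 in TIC. The TIC values of mice 832 and 834 were low, that of mouse 833 lay just under blood, and the difference from day 10 blood was -1.92 ± 0.57 (adjusted p = 0.0158 by limma). It turned to 1.31 under median centring. Eif4ebp1, Eif4ebp3, Eif4enif1 and the eEF2 kinase gene Eef2k were not called in either TIC comparison. Second kept probes were called higher against day 10 and day 0 blood, at 0.57 and 0.65 in Eif4ebp1 and at 0.40 and 0.38 in Eif4enif1. Against day 0 and without the TIC array of mouse 833, Eif4ebp1 was called higher, at 0.82 ± 0.21, and Eif4ebp3 lower, at -0.41 ± 0.16.

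The Argonaute genes went mostly the other way from the initiation factors with which the array names group them. Ago4 had ratios of -0.30, -0.74 and -0.22 on day 0, 0.19, -0.10 and 0.19 in day 10 blood, and -2.22, -2.06 and -2.24 in TIC. The groups did not overlap, and TIC was below day 10 blood, at -2.27 ± 0.16 (adjusted p = 5.43e-06 by limma). A second kept probe of Ago4 was not called, at 0.27. Ago2, the member that can cut its target RNA, had ratios of 0.11, -0.46 and -0.13 on day 0, 0.36, 0.55 and 0.15 in day 10 blood, and -3.93, -1.56 and -3.50 in TIC. All TIC values lay below blood, with mouse 833 nearest to it, and the difference was -3.35 ± 0.52, with all 3 kept probes called. Ago1 had 0.19, 0.44 and 0.29, then 0.12, -0.08 and 0.01, and -0.92, -0.38 and -0.92. Ago3 had 0.02, 0.12 and 0.14, then -0.03, -0.01 and -0.31, and 0.37, 0.44 and 0.30. The TIC values of Ago1 were below all blood values and those of Ago3 above them. Ago1 was called lower and Ago3 higher, both with day 10 blood not above background, as was day 0 blood for Ago3 (adjusted p = 0.00308 and 0.00437 by limma). A second kept probe of Ago1 was not called, at 0.06. Under median centring Ago1, Ago2 and Ago4 turned positive, to 0.55, 0.60 and 0.53.

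Further genes of the translation pathway that the name rule leaves out were counted from listed groups, beside the 34.4% higher and 33.1% lower of all genes. Of 12 release, recycling and poly(A)-binding genes, 7 were called higher in TIC than in day 10 blood and 3 lower. Paip2, an inhibitor of poly(A)-binding protein, was lower, at -3.92 ± 0.26, as was Tpt1, a very abundant translationally controlled mRNA, at -2.95 ± 0.17, and the release factor gene Gspt1 was called higher with day 10 blood not above background (adjusted p = 7.54e-05 by limma). Of 15 kinases and repressors, 3 were higher and 5 lower. Mknk2, a kinase of eIF4E, differed by -3.12 ± 0.31, Ppp1r15a, which targets a phosphatase to eIF2, by -2.04 ± 0.18, and the haem-controlled eIF2 kinase gene Eif2ak1 by -1.66 ± 0.12. Of 9 mitochondrial factors, 7 were higher and none lower, with the elongation factor Tufm at 1.54 ± 0.11, the recycling factor Mrrf at 0.92 ± 0.17 and Tsfm not above background in blood (adjusted p = 0.00241 by limma). Eif6, which keeps ribosomal subunits apart and is listed under an older name, was higher by 1.80 ± 0.13. Of the 4 genes listed under older names, Eif3m among them, 3 were called higher and 1 lower. The lower gene was Eif1ad, with day 10 blood not above background (adjusted p = 0.0351 by limma).

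Between day 10 and day 0 blood no factor was called, and no gene of all 14253 (0%) passed in the fit over all 9 arrays. At an unadjusted p under 0.05, which 14.8% of all genes passed, with 8.7% higher and 6.06% lower, there were 4 initiation factors higher and 3 lower, 1 elongation factor each way, 1 regulator lower and 1 Argonaute gene higher. eIF3 genes were mostly lower on day 10. In 9 of 12, namely Eif3a, Eif3b, Eif3c, Eif3d, Eif3e, Eif3f, Eif3g, Eif3h and Eif3l, every day 10 value lay below every day 0 value, and in Eif3i and Eif3k every one lay above. Over all genes, 17.2% did not overlap downward and 15.7% upward. These values are those of the brightest kept probe of each gene, and other probes differed less. A second kept probe was at -0.27 in Eif3a, -0.007 in Eif3b, 0.002 in Eif3d and -0.15 in Eif3e. The 5 kept probes of Eif3c ranged from -0.76 to 0.24. The median difference of eIF3 was -0.54, against -0.01 over all genes, and was -0.45, -0.63 and -0.51 in mice 832, 833 and 834. It was -0.46 within the slide that held all day 10 bloods and the day 0 blood of mouse 834, and between -1.16 and -0.35 under the settings tried. Of the subunits on the other side, Eif3k turned to -0.40 under median centring, and Eif3i, not above background on day 10, turned to -1.06 under the processed signals.

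With the values of Eif3g and Eif3e given above, the differences between the bloods were -0.71 ± 0.15 and -0.74 ± 0.22 (adjusted p = 0.0931 and 0.192 by limma). In a fit of the blood arrays alone, where 2.64% of all genes were called higher and 2.62% lower, 4 factors were called higher and 8 lower. Of eIF3, Eif3a, Eif3b, Eif3c, Eif3e, Eif3g and Eif3l were called lower (adjusted p between 0.0237 and 0.0497 by limma) and Eif3k higher (adjusted p = 0.0319 by limma). Without the TIC array of mouse 833, which widens the spread that all groups share, 4 were called higher and 9 lower (3.74% and 3.68% of all genes), with 7 eIF3 genes lower and 1 higher. These calls thus depend on which arrays set the spread, and they are those of the brightest kept probe of each gene.

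Elongation factor genes lay on both sides between the bloods, and none was called with all arrays. Eef1d was higher on day 10 in all 3 mice, by 1.24 ± 0.19 (adjusted p = 0.0659 with all arrays and 0.0186 with blood arrays alone, by limma), and its second probe differed by -0.05. Eef1g differed by -1.17 ± 0.44 (adjusted p = 0.265 and 0.0338 by limma), with groups that did not overlap, but its second kept probe differed by 0.05. Eef1a1 differed by -1.03 ± 0.90 without overlap, and Eef1b2, Eef1e1 and Eef2 overlapped between days. Under median centring Eef1d turned to -0.15. The factors Eif5 and Eif1 were at 1.27 ± 0.53 and 1.06 ± 0.45, neither called with all arrays, and they turned to -0.14 and -0.51 under median centring. Erythroid markers differed in the same samples: their median ratio per array was -3.34 to -2.12 on day 0 and -0.88 to -0.56 on day 10, and that of B cell markers was 0.40 to 1.17 and -0.64 to -0.03. None of the 5 erythroid or 5 B cell markers was called, and their part in the eIF3 and elongation differences was not tested.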

How the data were processed

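The authors deposited scanner tables of 9 arrays holding intensity values of spots and local background in both channels, together with a log10 ratio of Cy5 over Cy3, made with Agilent Feature Extraction 10.5.1.1 per the file headers and 9.1.3.1 per the submitters' processing notes. The deposited value table held the same log10 ratio, with no difference from the scanner tables (largest difference 0), and a median of 0 over all spots of each array. Its scale, centring and direction are thereby known.

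Background was corrected with normexp (offset 50, spots with non-uniform background set aside), and log2 ratios were normalized within each array by loess. Control and outlier spots had weight 0. A probe was kept when its Cy5 signal was well above background on 3 or more of the 9 arrays, which left 19995 probes, and the brightest kept probe stood for its gene, among the probes the name rule covers for the factors. The 14253 genes were tested with limma 3.58.1 in R 4.3.3 over all 9 arrays with group as the only term (6 residual degrees of freedom) and Benjamini-Hochberg adjustment, threshold 0.05. The script was tested on simulated data. The number of arrays limits the precision. Probe names came from RefSeq accessions, symbols or synonyms, and the files give coordinates in mm8. No mm8 annotation was used here, so exon or UTR positions of probes were not analysed here.

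Same-numbered samples come from the same mouse. Deviations of same-mouse bloods correlated at 0.186, 0.346 and 0.243, and those of TIC with blood between -0.0572 and 0.0654.

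Members and lists were chosen with earlier results of these data known, so counts and medians are descriptions. Values on every array are given for all elongation factors, for every gene of a role with up to 4 tested genes, for the called gene with the largest rise and the largest fall between TIC and day 10 blood in each other role, for the 5 genes with the smallest p between the bloods and for genes with probes called both ways. Other genes are given by difference or count. The list of factors under older names was added after the files were read. Alternatives covered background, scaling, filter, probes, arrays in the fit, mouse, slide and each array left out.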

Additional observations from a re-analysis of the deposited data

How the results depend on the processing

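Medians of initiation factors in this section take the 43 tested genes named Eif, Argonaute genes included. Of the values for named genes under the alternatives, 1133 kept their side of the threshold, 35 passed it newly, 48 no longer passed it and 26 turned. Turns were counted only where the gene was called in a fit. Genes called in neither fit are among the 1133 whatever their sign. The cause of these changes was not tested, except that fewer genes were tested under the stricter filter.

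Median centring in place of loess moved most. TIC against day 10 blood then had 48 factors called higher and 0 lower, beside 10274 and 463 of all 14253 genes, with medians of 3.92 for initiation and 4.92 for elongation. Against day 0 blood the values were 48 and 0 (9432 and 816 of all genes), 3.1 and 4.03, and between the bloods the medians were -0.54 and -1.07. Under it the differences of TIC from day 10 blood and from day 0 blood turned to 0.53 and 0.28 in Ago4, 5.30 and 3.19 in Eef1a1, 4.54 and 4.39 in Eef1d, 2.80 and 2.05 in Eef2, 0.92 and 0.78 in Eif2b5, 1.31 and 0.42 in Eif4ebp2, 3.08 and 2.63 in Eif4g2, 3.74 and 3.16 in Eif5a, and 1.27 and 0.94 in Eif5a2. Eef1g turned to 4.05 against day 0.

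The processed signals and the authors' deposited log10 ratio each gave 1 factor higher and 1 lower between the bloods (137 and 626 of all genes with the processed signals), medians there of -0.53 for initiation and -0.82 for elongation, 1.71 for initiation in TIC against day 10 blood, and 0.0455 for Eif4g2. These settings moved the median of all genes to 0.84 and 0.85 in that comparison. In Cy5 alone 1 factor was higher and 2 lower between the bloods (241 and 312 of all genes), with an initiation median of -0.25. In TIC against day 10 blood it gave 28 higher and 6 lower (4928 and 3311 of all genes) and medians of 0.97 and 1.51, and against day 0 an elongation median of 1.05. Eif5a turned to 0.75 and 1.13, and Eef1d to 0.65 against day 0. The mean of a gene's probes gave initiation medians of 0.49 and 0.46 and turned Eif5a to 0.16 and 0.47.

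With probes well above background on all 9 arrays, 31 factors of 3897 genes remained to test. Of these factors 1 was higher and 0 lower between the bloods (initiation median 0.0297; 101 and 46 of all genes), 13 higher and 9 lower in TIC against day 10 blood (median 0.16; 692 and 2264) and 9 higher and 6 lower against day 0 (median -0.033; 621 and 2289), while all genes had medians near -1.0 and -0.98 in the TIC comparisons. No filter gave initiation medians of 0.57 and 0.50, and normexp on all spots 0.62. The fit of the blood groups alone called 4 higher and 8 lower (376 and 373 of all genes).

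With mouse as a replicate block, counts of higher and lower factors were 0 and 0 between the bloods, 28 and 10 in TIC against day 10 blood and 23 and 7 against day 0, so the pairing moved no count of factors by over 1.5 times (of all genes, 29 and 3 were called between the bloods). It changed the calls of Eef1g, Eif3a and Eif4g2 against day 10 blood and of Eif3b, Eif4h and Eif4g3 against day 0, and no other call of a factor. Slide as a block gave 15 higher, 5 lower (1498 and 2776 of all genes) and an initiation median of 0.82 against day 10 blood. Mouse and slide together gave 6 higher, 0 lower (214 and 897 of all genes) and medians of 0.80 and 1.34 there, 4 lower against day 0 (2960 of all genes), and an elongation median of -0.45 between the bloods. Without the 4 Argonaute genes, an alternative chosen after seeing the data, 5 were lower against day 0 and the initiation median against day 10 blood was 0.76.

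With each array left out in turn, counts between the bloods ranged from 0 to 4 higher and 0 to 9 lower, with medians of -0.17 to -0.0252 for initiation and -0.31 to -0.04 for elongation. In TIC against day 10 blood they ranged from 23 to 28 and 9 to 18, with 0.60 to 0.73 and -0.46 to 0.79. Against day 0 they ranged from 21 to 24 and 7 to 19, with 0.31 to 0.73 and -0.43 to 0.21. Leaving out the TIC array of mouse 833 gave the highest counts of lower factors and the lowest elongation medians of both TIC comparisons. Dim signal limits the genes not above background in day 10 blood.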
